A study of Homo sapiens with 30 samples.

Results

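UMUC1 is an established human bladder cancer cell line in which, per the series record, UTX, the protein of KDM6A, has lost its function by mutation. Cells that stably expressed wild type UTX from a pSIN-puro vector (UTX_full, 3 libraries) were compared with cells that expressed UTX changed at H1146A and E1148A from the same kind of vector (HEAA_full, 3 libraries). Cells with the empty vector (EV_full, 3 libraries) show the level with neither protein added. All 3 groups grew in full medium, which is MEM with 10% fetal bovine serum, and RNA was taken on day 3 after plating. The comparison rests on 6 of the 30 libraries of the series, and 19629 of the 58288 genes listed passed a filter on low counts and were tested. The same contrast in sphere medium (UTX_sphere and HEAA_sphere, 3 libraries each) is set beside it. Sphere medium lacked serum and held 20 ng/ml each of EGF and FGF2 with a B27 supplement free of vitamin A. Every group is the same cell line with a vector, and protein levels and histone marks are not analysed here. The labels do not say whether replicates were separate cultures, so the p-values measure only the spread between these libraries, which may be technical.

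UTX removes methyl groups from H3K27, a mark that the Polycomb complex PRC2 sets on silent genes. It is also a subunit of the KMT2C and KMT2D complexes, which methylate H3K4 at enhancers, and part of its known function does not need its demethylase activity. The HEAA changes replace residues that hold the iron of the catalytic domain, and the mutant is in common use as a form without demethylase activity. KDM6A is often mutated in urothelial cancer, where tumours are described along an axis between basal and luminal states of the urothelium.

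KDM6A itself, on chromosome X at 44873177 to 45112602 (plus strand), was detected at high level with either vector. It had 593, 577 and 568 CPM (counts scaled to an equal library total with TMM factors) in the UTX_full libraries, against 692, 687 and 702 CPM in HEAA_full, and averaged 17.4 ± 0.745 CPM in EV_full (SD, n = 3). The UTX_full and HEAA_full libraries did not overlap, and UTX_full was the lower: the log2 fold change was -0.26 ± 0.04 (SE; edgeR quasi-likelihood test, adjusted p = 2.65e-05). Against EV_full the log2 fold changes were 5.05 for UTX_full and 5.31 for HEAA_full. KDM6A RNA was thus 1.197-fold lower in UTX_full than in HEAA_full, and the part of this gap in the other differences was not tested. In sphere medium the KDM6A difference was -0.13 (adjusted p = 0.0139), and the difference between media was -0.13 (adjusted p = 0.182).

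Total counts were 32633665, 23817093 and 29365680 in UTX_full and 26392441, 25623028 and 30029477 in HEAA_full, and ran from 23749352 to 40111234 over the 18 libraries of the experiment. The summed level of 10 urothelial and epithelial markers was 5778 to 6064 CPM in UTX_full, 6154 to 6387 CPM in HEAA_full and 8908 to 9258 CPM in EV_full, with none at 0. The largest gaps were in KRT5, with means of 167, 479 and 2287 CPM in UTX_full, HEAA_full and EV_full, and in KRT13. KRT13 averaged 1102, 1401 and 2490 CPM in these groups. KRT5, KRT13, KRT7, TP63 and EPCAM averaged lower in UTX_full than in HEAA_full, and KRT8, KRT18, KRT19, GATA3 and CDH1 averaged higher. The sum of 10 fibroblast markers was 52.3 to 58.9 CPM in UTX_full, 41.2 to 45.4 CPM in HEAA_full and 44.4 to 54.3 CPM in EV_full. The sum of 10 leukocyte and endothelial markers was 6.88 to 7.73 CPM in UTX_full, 9.32 to 9.70 CPM in HEAA_full and 6.09 to 7.33 CPM in EV_full. Of these markers 2 were at 0 in UTX_full, 2 in HEAA_full and 3 in EV_full, with CD3E at 0 in UTX_full and KDR in HEAA_full. Mitochondrial RNA made up 4.79% to 4.97% of counts in UTX_full and 4.89% to 5.69% in HEAA_full. CPM are not divided by gene length, so levels are compared between libraries and not between genes. Genes with near-identical copies (the KRT6, NPIPB, protocadherin beta, HLA and actin genes, and mitochondrial genes with nuclear copies) are uncertain, since reads may be divided between copies.

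Many genes differed between UTX_full and HEAA_full, most of them by a small factor. At adjusted p under 0.05, 1756 of 19629 genes were higher in UTX_full (8.95%) and 2442 were lower (12.4%), 4198 in either direction (21.4%). Each list count in full medium below is to be read beside these shares, as some small counts are near them. The median size of a called difference was 1.19-fold, and 90% of called differences were under 1.60-fold. With a fold of at least 2 as well, 47 genes were higher (0.239%) and 136 were lower (0.693%), 0.932% in all. The libraries of the groups did not overlap for 6809 genes (34.7%), with 3142 higher (16%) and 3667 lower (18.7%). The balance of directions depends on the scaling: TMM factors gave 41.8% of calls on the higher side, and upper quartile factors gave 2457 higher and 1935 lower genes, or 55.9% on the higher side. Without HEAA_full replicate 3 the lower count was 1591. Over all genes the median log2 fold change was -0.002. For scale, UTX_full against EV_full had 5583 genes higher (28.4%) and 5736 lower (29.2%), 57.7% in all, and HEAA_full against EV_full had 4554 higher (23.2%) and 4975 lower (25.3%), 48.5% in all. These comparisons share libraries, so their values are only given side by side.

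**Figure D1:**
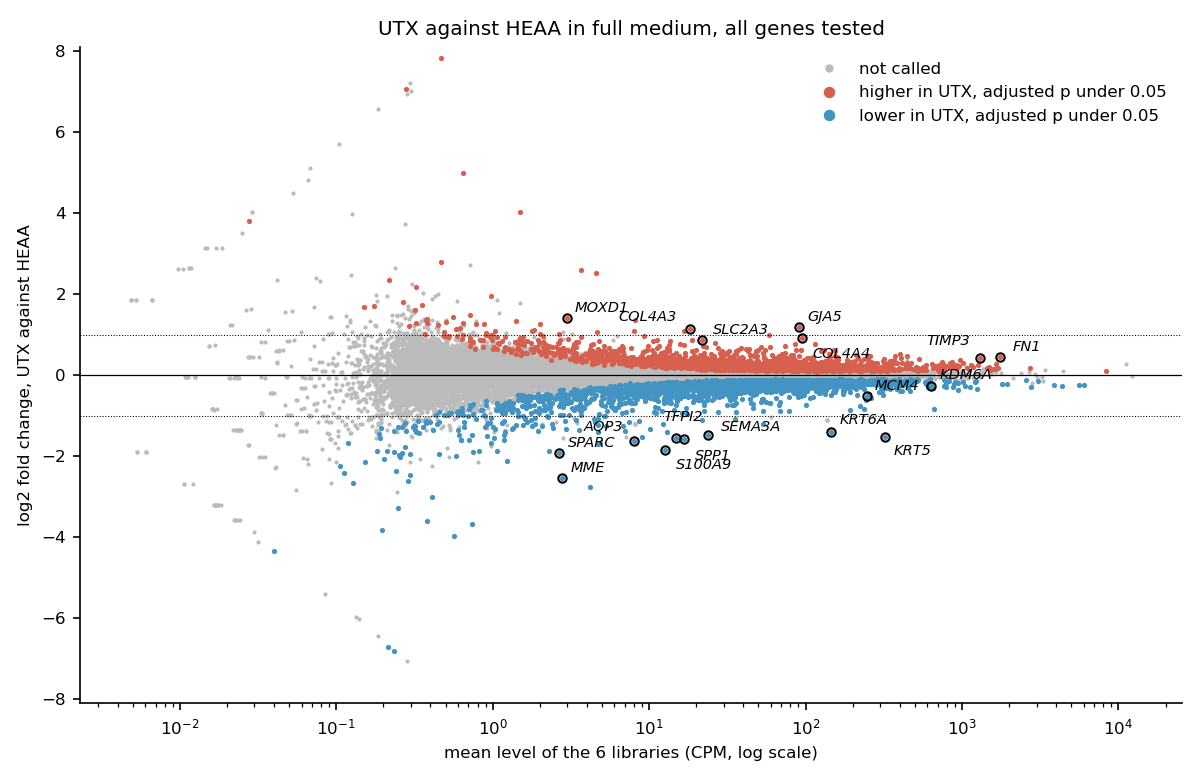
Log2 fold change of UTX against HEAA in full medium (vertical axis) against the mean level of the 6 libraries in CPM (horizontal axis, log scale), 1 point per gene tested. Red points are the 1756 genes higher in UTX and blue points the 2442 lower, the dotted lines mark 2-fold, and among the circled genes the falls of KRT5 and KRT6A and the rise of GJA5 stand out at levels near or above 100 CPM.

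The 12 largest falls among genes of at least 2 CPM with non-overlapping libraries were MME, SPARC, CD22, S100A9, GRHL3, FRY, AQP3, SPP1, TFPI2, PKP1, KRT5 and SEMA3A. KRT5, the type II keratin of basal epithelial cells, had 177, 167 and 158 CPM in UTX_full, against 463, 461 and 512 CPM in HEAA_full. It averaged 2287 CPM in EV_full, so both vectors lay below the empty vector and wild type UTX the further below. Its log2 fold change between UTX_full and HEAA_full was -1.52 ± 0.05 (adjusted p = 2.29e-14), a 2.86-fold fall. In bulk RNA, fewer cells that express a gene and less of its RNA per cell cannot be told apart. Against EV_full the log2 fold change was -3.77 for UTX_full and -2.26 for HEAA_full.

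S100A9, a calcium-binding alarmin of inflamed and squamous epithelium, had 5.23, 6.52 and 4.87 CPM in UTX_full, against 19.6, 20.2 and 19.6 CPM in HEAA_full. The log2 fold change was -1.85 ± 0.07 (adjusted p = 5.17e-14), 3.61-fold lower. Libraries that do not overlap were a condition for the 12 falls. MME, the membrane metallopeptidase neprilysin, had 0.727, 0.636 and 1.07 CPM in UTX_full, against 4.98, 5.09 and 4.26 CPM in HEAA_full. This was the largest of the 12 falls, 5.78-fold, with a log2 fold change of -2.53 ± 0.16 (adjusted p = 3.44e-10). SPARC, a collagen-binding matrix protein, had 1.13, 1.43 and 0.817 CPM in UTX_full, against 3.60, 4.28 and 4.71 CPM in HEAA_full and a mean of 90.5 CPM in EV_full. It fell 3.80-fold between UTX_full and HEAA_full (adjusted p = 1.31e-08), on top of the gap that separates both from the empty vector.

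GRHL3, a grainyhead transcription factor of the epithelial barrier, had 2.01, 2.03 and 2.55 CPM in UTX_full, against 7.41, 7.17 and 7.03 CPM in HEAA_full (log2 fold change -1.71 ± 0.10, adjusted p = 2.04e-10). AQP3, a water and glycerol channel, had 4.16, 3.62 and 4.02 CPM in UTX_full, against 11.3, 12.1 and 12.9 CPM in HEAA_full (-1.61 ± 0.07, adjusted p = 1.11e-12). PKP1, a desmosomal plaque protein, had 5.26, 4.22 and 4.40 CPM in UTX_full, against 13.5, 12.2 and 14.3 CPM in HEAA_full (-1.52 ± 0.08, adjusted p = 2.80e-11). All 3 fell by at least the fold of KRT5. PKP1 averaged 11.3 CPM in EV_full, so HEAA_full lay near the empty vector for this gene (log2 fold change 0.24 against EV_full) while UTX_full lay below it (-1.28). The secreted proteins SPP1 (osteopontin) and TFPI2 (a Kunitz-type protease inhibitor) fell 2.99-fold and 2.91-fold, the axon guidance ligand SEMA3A fell 2.77-fold, and FRY and the lectin CD22 fell 3.21-fold and 3.64-fold.

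The 12 largest rises were BLOC1S5-TXNDC5, MOXD1, ZNF350, GJA5, COL4A3, MFAP3L, SLC1A6, ZNF813, SPATA18, COL4A4, PCDHB10 and SLC2A3, all but BLOC1S5-TXNDC5 at most 2.65-fold. GJA5, the gap junction protein connexin 40, had 127.5, 126.7 and 123.8 CPM in UTX_full, against 52.9, 57.6 and 55.9 CPM in HEAA_full. The groups were far apart and tight, and GJA5 rose 2.27-fold (log2 fold change 1.18 ± 0.05, adjusted p = 1.29e-13). It averaged 5.90 CPM in EV_full, with log2 fold changes against EV_full of 4.42 for UTX_full and 3.24 for HEAA_full. MOXD1, a monooxygenase-family protein, had 4.27, 4.06 and 4.62 CPM in UTX_full, against 1.31, 1.68 and 1.88 CPM in HEAA_full (1.41 ± 0.21, adjusted p = 3.87e-05). The glutamate transporter SLC1A6 rose 1.99-fold, the glucose transporter SLC2A3 rose 1.82-fold, MFAP3L rose 2.12-fold and the p53-inducible mitochondrial protein SPATA18 rose 1.95-fold. BLOC1S5-TXNDC5 is a readthrough of neighbouring genes and rests on single libraries. It had 4.97, 7.08 and 11.2 CPM in UTX_full, against 4.10, 0.0366 and 0 CPM in HEAA_full. Its adjusted p was 0.013 with all libraries, and 0.0769 without UTX_full replicate 3, 0.0622 without HEAA_full replicate 2 and 0.0711 without HEAA_full replicate 3.

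**Figure D2:**
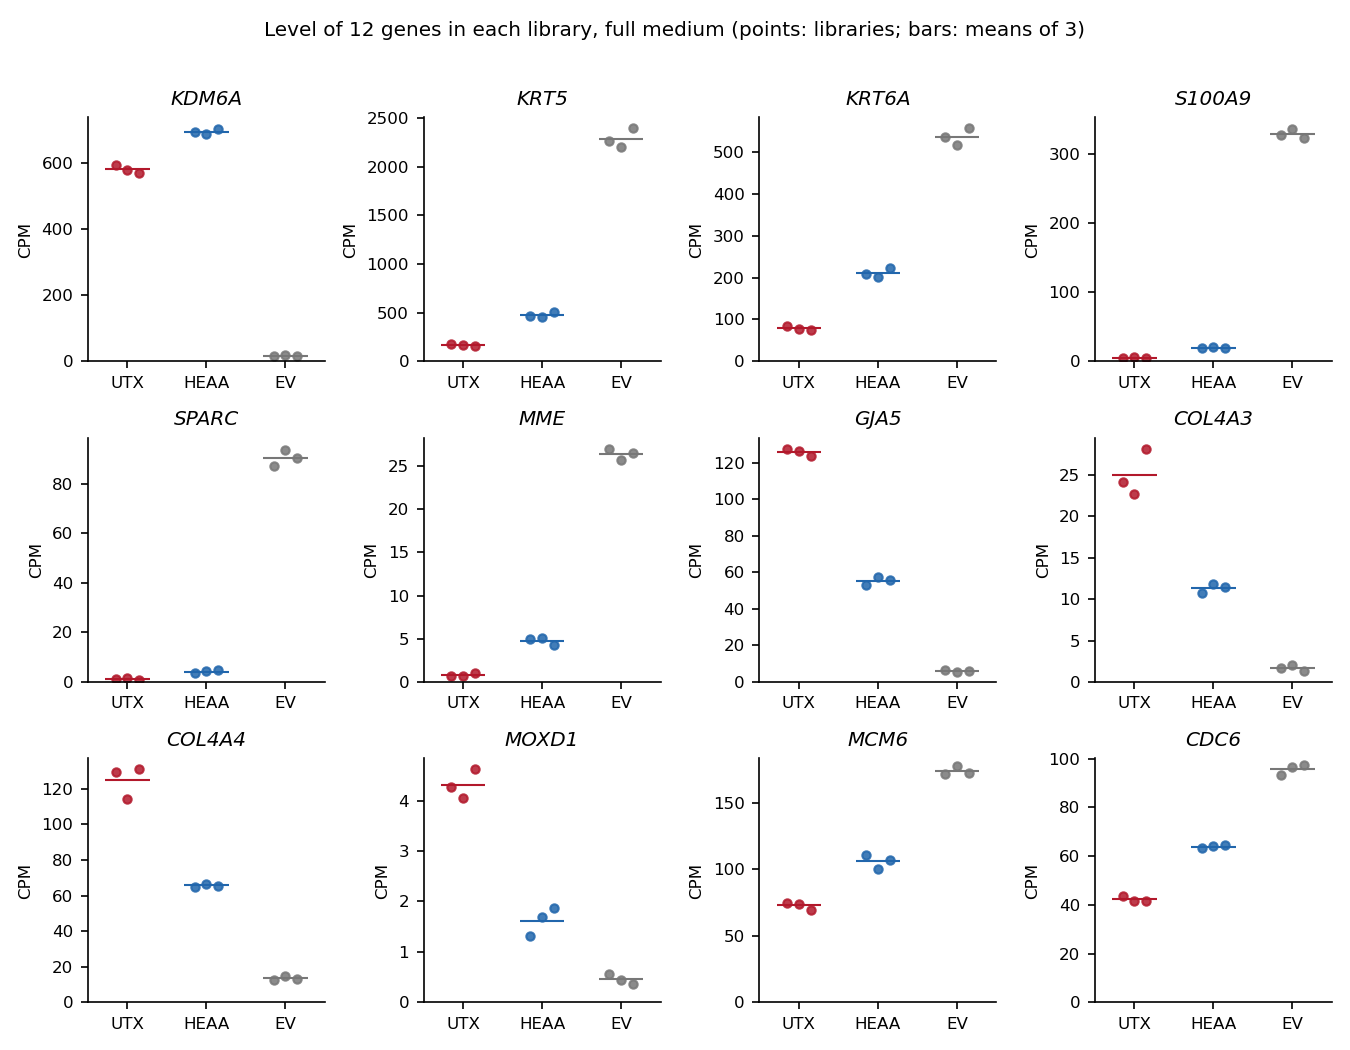
Level in CPM of 12 genes in each library of UTX, HEAA and EV in full medium, with points for libraries and bars for the means of 3. KDM6A is at 568 to 702 CPM with either UTX vector and averages 17.4 CPM with the empty one, KRT5, KRT6A, S100A9, SPARC, MME, MCM6 and CDC6 are lowest in UTX, and GJA5, COL4A3, COL4A4 and MOXD1 are highest in UTX.

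COL4A3 and COL4A4, which encode chains of the basement membrane collagen IV network, lie head to head on chromosome 2 and were both among the 12 largest rises. COL4A3 had 24.1, 22.7 and 28.1 CPM in UTX_full, against 10.7, 11.9 and 11.4 CPM in HEAA_full, and averaged 1.65 CPM in EV_full. COL4A4 had 129.5, 114.3 and 131.0 CPM in UTX_full, against 64.9, 66.7 and 65.6 CPM in HEAA_full, and averaged 13.7 CPM in EV_full. Non-overlapping libraries were a condition for the 12 rises. The log2 fold changes were 1.14 ± 0.12 (adjusted p = 5.78e-07) and 0.93 ± 0.05 (adjusted p = 1.47e-11). Their RefSeq start sites (GRCh38.p14) have 418 bases between them, and the windows from 250 bases before to 50 bases after each start share 82 bases. The windows, chr2:227164374-227164673 on the plus strand for COL4A3 and chr2:227164156-227164455 on the minus strand for COL4A4, are shown because the starts of both genes, which both rose, lie beside each other. Capitals mark the shared bases, read on opposite strands.
COL4A3: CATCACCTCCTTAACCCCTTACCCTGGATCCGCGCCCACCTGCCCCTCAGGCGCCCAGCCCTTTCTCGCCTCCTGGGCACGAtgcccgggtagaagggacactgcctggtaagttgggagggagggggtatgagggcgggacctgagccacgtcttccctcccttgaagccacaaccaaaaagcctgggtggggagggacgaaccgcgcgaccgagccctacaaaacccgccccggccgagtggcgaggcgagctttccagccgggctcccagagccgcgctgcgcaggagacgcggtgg
COL4A4: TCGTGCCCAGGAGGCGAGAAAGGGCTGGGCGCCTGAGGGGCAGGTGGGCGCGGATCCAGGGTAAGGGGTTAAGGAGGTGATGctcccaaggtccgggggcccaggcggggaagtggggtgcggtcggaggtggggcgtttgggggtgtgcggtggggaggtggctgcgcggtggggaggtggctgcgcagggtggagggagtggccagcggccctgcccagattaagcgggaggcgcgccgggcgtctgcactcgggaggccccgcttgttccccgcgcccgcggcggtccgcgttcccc

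DNA replication genes were lower in UTX_full almost throughout. Of 24 genes of the list (licensing factors, helicase subunits, polymerases and clamp loaders), 20 were lower (83.3%, against 12.4% of all genes tested) and 0 were higher by edgeR, with 0 higher at an unadjusted p under 0.05 and 0 by DESeq2. All 24 had a log2 fold change below 0, with a median of -0.31 and a range of -0.59 to -0.05. CDC6, which loads the replicative helicase at origins, had 43.7, 41.6 and 41.7 CPM in UTX_full, against 63.5, 64.0 and 64.5 CPM in HEAA_full. Its log2 fold change was -0.59 ± 0.04 (adjusted p = 4.98e-10), and it averaged 95.8 CPM in EV_full. MCM6, a helicase subunit, had 74.8, 73.8 and 69.7 CPM in UTX_full, against 110.7, 100.4 and 106.8 CPM in HEAA_full and a mean of 174 CPM in EV_full. The groups did not overlap for either gene, and MCM6 fell 1.46-fold (adjusted p = 1.12e-08). Other helicase subunits fell alike: MCM4 by 1.44-fold, MCM2 with a log2 fold change of -0.48 and MCM5 with -0.47, while the clamp PCNA had -0.17 (adjusted p = 0.00566). The lower count was 17 to 20 when single libraries were left out.

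The promoter windows of MCM6 (chr2:135876394-135876693, minus strand) and CDC6 (chr17:40287629-40287928, plus strand) are shown as examples of this group, from RefSeq on GRCh38.p14, with matches to TTTNGCGC on either strand in capitals. The motif is the core of the site that E2F factors are known to bind. It was found at 2 places in MCM6 as 4 overlapping matches and once in CDC6. Of the 24 replication genes 21 had a window in the RefSeq table, and 10 of the 21 held the motif, against 2.17% of 27305 genes with a window of 300 bases. Genes of the list were counted whether called or not, and the other windows were not matched to them. A match describes these letters only, and the part of E2F factors was not tested.
MCM6: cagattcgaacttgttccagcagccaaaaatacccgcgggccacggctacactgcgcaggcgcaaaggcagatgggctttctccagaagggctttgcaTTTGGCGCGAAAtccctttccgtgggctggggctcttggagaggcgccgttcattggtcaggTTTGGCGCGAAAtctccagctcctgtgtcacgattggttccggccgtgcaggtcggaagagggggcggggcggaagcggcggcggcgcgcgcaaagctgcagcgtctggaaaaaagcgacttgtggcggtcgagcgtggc
CDC6: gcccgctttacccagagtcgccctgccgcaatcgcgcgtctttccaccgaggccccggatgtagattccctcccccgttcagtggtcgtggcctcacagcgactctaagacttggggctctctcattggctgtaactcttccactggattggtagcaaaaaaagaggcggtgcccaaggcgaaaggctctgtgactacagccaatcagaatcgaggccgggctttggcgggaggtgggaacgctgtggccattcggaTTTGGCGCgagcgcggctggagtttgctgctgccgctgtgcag

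Genes that control entry into S phase moved in both directions. Of 17 G1 cyclins, E2Fs and CDK inhibitors, 8 were lower and 2 higher, and without HEAA_full replicate 3 the lower count was 5. E2F1, the transcription factor, had 25.2, 24.5 and 28.2 CPM in UTX_full, against 37.9, 42.8 and 38.2 CPM in HEAA_full (log2 fold change -0.61 ± 0.06, adjusted p = 4.26e-07). The S phase cyclins CCNE1 (-0.54) and CCNE2 (-0.51) also fell. The 2 rises were the CDK inhibitors CDKN1A and CDKN2B. CDKN1A (p21) had 400.1, 405.5 and 371.7 CPM in UTX_full, against 310.3, 301.5 and 313.8 CPM in HEAA_full (0.35 ± 0.04, adjusted p = 8.77e-06), and CDKN2B (p15) had a log2 fold change of 0.28. CCND1 averaged 482.2 CPM in UTX_full and 482.8 CPM in HEAA_full. Of 22 mitosis genes only AURKB (-0.15, adjusted p = 0.0345) and BIRC5 (-0.13, adjusted p = 0.0437) were called in full medium, both near the threshold. The call of AURKB ended on leaving out any of 11 of the 12 UTX and HEAA libraries (adjusted p 0.0554 to 0.238), and that of BIRC5 on leaving out any of 10 (0.0559 to 0.227). Of the list 0 were higher by edgeR, by DESeq2 and at an unadjusted p under 0.05, but 1 was higher without UTX_full replicate 3, and upper quartile factors gave 2 higher and 0 lower.

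Basal and luminal genes were divided within their lists. Of 22 basal genes, 7 were lower and 5 higher, with a median of 0.00. The lower members were the keratins KRT5, KRT6A, KRT14 and KRT16, the desmosomal proteins PKP1 and DSC3, and TP63, the master transcription factor of basal epithelium. KRT6A, a keratin of activated and squamous epithelium, had 85.3, 77.6 and 75.6 CPM in UTX_full, against 207.5, 201.6 and 223.7 CPM in HEAA_full (-1.41 ± 0.05, adjusted p = 2.29e-14). TP63 moved little, at 98.7 ± 3.47 CPM in UTX_full and 108 ± 5.09 CPM in HEAA_full (SD, n = 3 each; -0.13, adjusted p = 0.0226). The higher members were KRT15 (0.17), the hemidesmosomal ITGB4 (0.21) and COL17A1 (0.25), EGFR (0.25) and the hyaluronan receptor CD44 (0.29). CD44 averaged 709 ± 20.5 CPM in UTX_full and 582 ± 13.1 CPM in HEAA_full (SD, n = 3 each; adjusted p = 7.14e-07).

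Of 28 luminal genes tested, 11 were higher (39.3%, against 8.95% of all genes) and 4 lower, with a median of 0.08. The rises were small. The transcription factor TBX2 averaged 10.99 ± 0.455 CPM in UTX_full and 7.41 ± 0.298 CPM in HEAA_full (SD, n = 3 each; log2 fold change 0.57, adjusted p = 0.00203). UPK2, a uroplakin of the urothelial surface, had 28.4, 30.8 and 31.4 CPM in UTX_full, against 21.2, 23.5 and 20.8 CPM in HEAA_full (0.47 ± 0.07, adjusted p = 2.57e-05). The other rises were CYP2J2 (0.36), UPK3B (0.22), ERBB3 (0.20), ERBB2 (0.19), KRT19 (0.17), GATA3 (0.16), CDH1 (0.16), UPK1B (0.14) and TBX3 (0.14). The 4 falls were GRHL3, SNX31 (-0.92), KRT13 (-0.35) and the pioneer factor FOXA1 (-0.32). KRT13, a keratin of transitional epithelium, had 1096, 1129 and 1081 CPM in UTX_full, against 1386, 1386 and 1431 CPM in HEAA_full. PPARG, the nuclear receptor of luminal tumours, averaged 52.0 ± 2.78 CPM in UTX_full and 49.1 ± 1.51 CPM in HEAA_full (0.08, adjusted p = 0.229).

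Of 28 squamous and cornified envelope genes tested, 6 were lower and 0 higher by edgeR, with 0 higher at an unadjusted p under 0.05 and 0 by DESeq2, which called 8 lower. Many of them were barely detected in full medium: 8 had at most 3 counts summed over each group. Over the other 20, with groups at 0 set to that floor, the median log2 fold change was -0.56. The 6 lower genes were KRT1, S100A8, S100A9, DSC2, IVL and CSTA. Involucrin (IVL), a precursor of the cornified envelope, had 65.0, 66.5 and 59.3 CPM in UTX_full, against 91.8, 91.7 and 94.3 CPM in HEAA_full (-0.54 ± 0.06, adjusted p = 1.48e-06), and the desmosomal cadherin DSC2 fell 1.49-fold. KRT1 and S100A8 were under 1 CPM with either vector, and in EV_full they averaged 46.8 and 20.5 CPM.

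**Figure D3:**
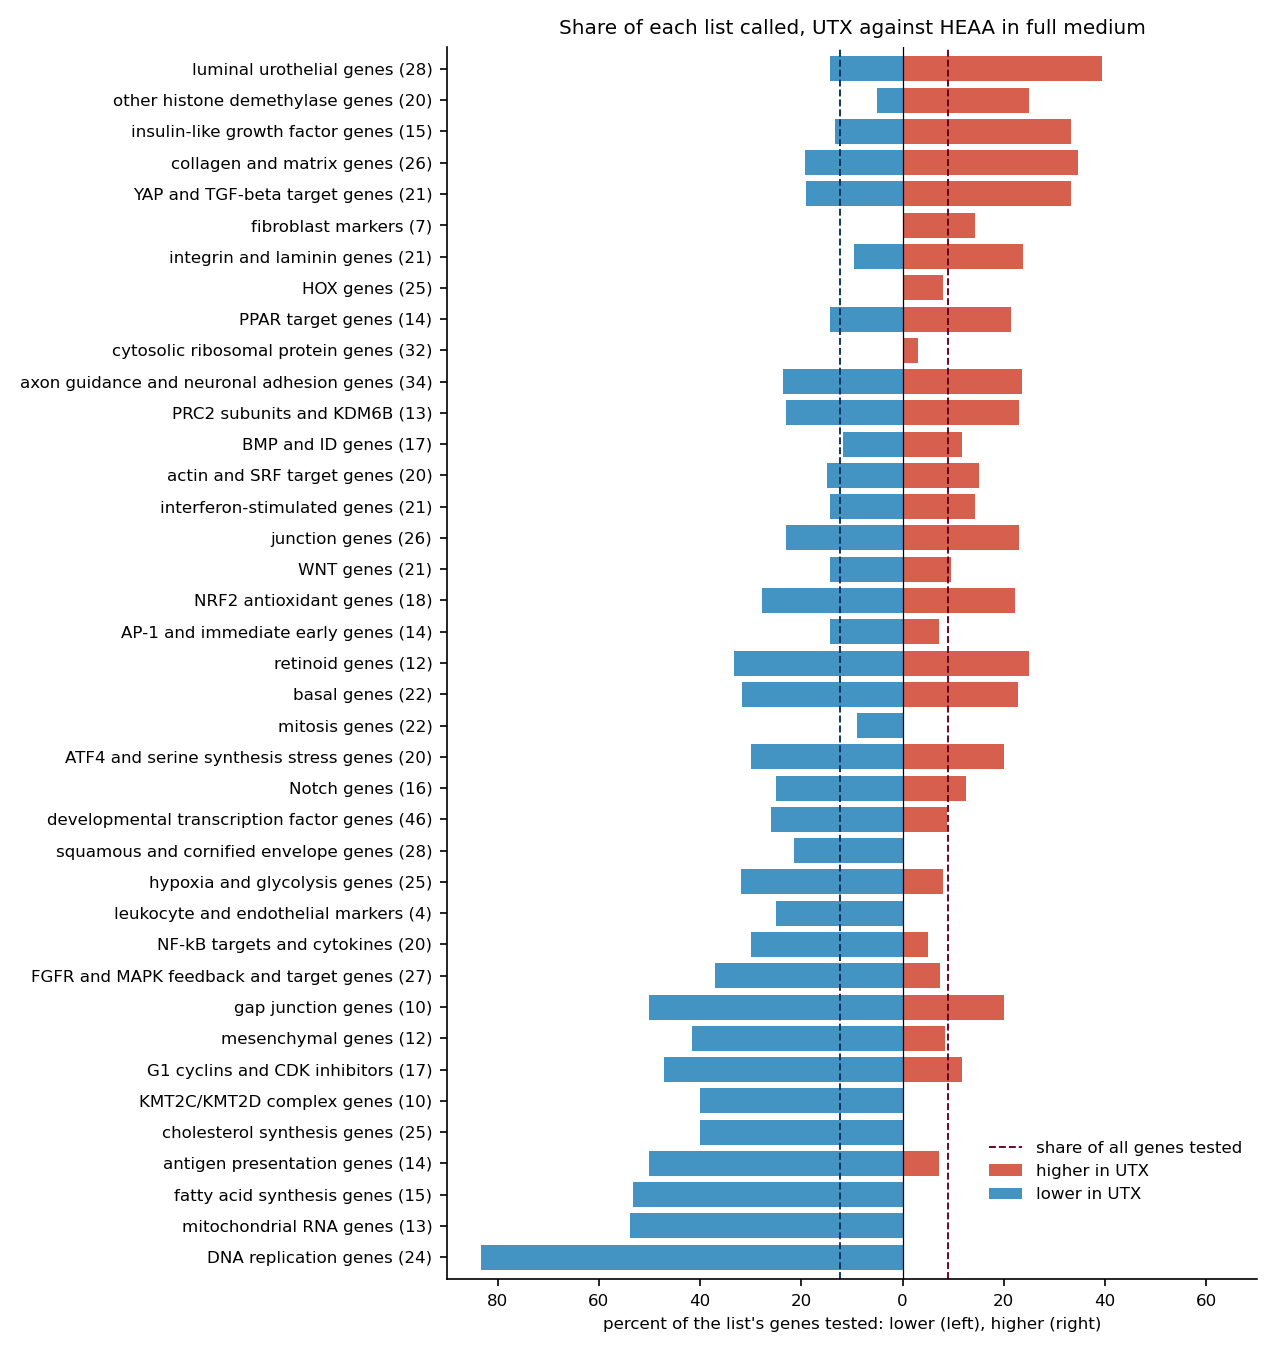
Percent of each list's genes tested (number in brackets) that were lower (left, blue) or higher (right, red) in UTX than in HEAA in full medium, ordered by the balance of directions, with dashed lines at the shares over all genes, 12.4% lower and 8.95% higher. DNA replication genes are lower in 20 of 24, and luminal genes have the largest share on the higher side, 11 of 28.

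Genes that respond to FGFR and MAPK signalling were mostly on the lower side. Of 27, 10 were lower and 2 higher (KCNN4 and DUSP5), with a median of -0.19, and without HEAA_full replicate 1 the higher count was 1. The other 15 were not called. Over all genes 12.4% were lower and 8.95% higher, so the higher count is near its share. DUSP6, the ERK phosphatase, had 7.15, 7.198 and 7.64 CPM in UTX_full, against 10.7, 12.1 and 11.7 CPM in HEAA_full (-0.65 ± 0.07, adjusted p = 6.28e-07). The ETS factor ETV4 had 2.56, 2.98 and 2.33 CPM in UTX_full, against 5.29, 4.25 and 4.74 CPM in HEAA_full (-0.87 ± 0.11, adjusted p = 7.30e-06). All libraries of UTX_full were below those of HEAA_full for both genes, and both averaged higher still in EV_full, at 23.9 CPM for DUSP6 and 13.3 CPM for ETV4. The Sprouty protein SPRY4 (-1.08), EMP1 (-0.48), HMGA1 (-0.29), MYC (-0.27), FOSL1 (-0.23), HMGA2 (-0.23), SPRED2 (-0.19) and PHLDA1 (-0.15) made up the rest. SPRY4 was scarce, at 0.507 ± 0.0956 CPM in UTX_full and 1.07 ± 0.202 CPM in HEAA_full. The higher count was 5 with upper quartile factors. Of 14 AP-1 and immediate early genes, JUNB rose (0.27, adjusted p = 0.00106), and FOSL1 (adjusted p = 0.00176) and MAFF (-0.26, adjusted p = 0.0314) fell. The call of MAFF ended on leaving out any of 8 libraries (adjusted p 0.0513 to 0.163), and the higher count was 2 without UTX_sphere replicate 2. The counts of this list are near the shares over all genes, 8.95% higher and 12.4% lower.

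Extracellular matrix genes moved both ways. Of 26 collagen and matrix genes, 9 were higher and 5 lower. The basement membrane and anchoring genes COL4A3, COL4A4, COL4A5 (0.24), COL7A1 (0.47), COL17A1, FRAS1 (0.85) and FREM2 (0.65) rose, with MFAP5 (0.68) and the protease TLL2 (0.61). COL7A1, the anchoring fibril collagen, averaged 520.6 ± 17.98 CPM in UTX_full and 375 ± 23.6 CPM in HEAA_full (SD, n = 3 each; adjusted p = 7.00e-06). Tenascin C (TNC) had 14.0, 14.0 and 13.6 CPM in UTX_full, against 27.8, 31.2 and 29.9 CPM in HEAA_full (-1.09 ± 0.05, adjusted p = 5.86e-12), and COL16A1 (-1.01), the crosslinking enzyme LOX (-0.94), fibrillin FBN1 (-0.65) and COL4A6 (-0.17) fell too. TNC averaged 6.06 CPM in EV_full, so for this gene both vectors lay above the empty vector and HEAA_full the further above. Of 12 mesenchymal genes, SPARC, ZEB1 (-1.36), MSN (-0.91), MMP2 (-0.46) and S100A4 (-0.37) fell and FN1 rose. MSN (moesin, which ties actin to the membrane) had 20.2, 18.4 and 18.7 CPM in UTX_full, against 35.2, 35.9 and 37.1 CPM in HEAA_full and a mean of 2.75 CPM in EV_full. The gelatinase MMP2 had 217.2, 214.3 and 212.0 CPM in UTX_full, against 283.5, 300.7 and 302.6 CPM in HEAA_full and a mean of 67.2 CPM in EV_full. ZEB1 was under 1 CPM in every group, and the lower count of this list was 3 without UTX_full replicate 3, HEAA_full replicate 1 or HEAA_full replicate 3.

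The 6 largest rises in CPM were those of FN1, TIMP3, CAV1, IGF2, FBLN1 and ITGB4. Fibronectin (FN1) had 2167, 1868 and 2064 CPM in UTX_full, against 1407, 1513 and 1545 CPM in HEAA_full (0.45 ± 0.07, adjusted p = 3.68e-05). The metalloproteinase inhibitor TIMP3 had 1513, 1522 and 1477 CPM in UTX_full, against 1101, 1108 and 1142 CPM in HEAA_full (0.43 ± 0.07, adjusted p = 0.000240), and fibulin FBLN1 rose 1.30-fold. The growth factor IGF2 had 1756, 1881 and 1804 CPM in UTX_full, against 1519, 1473 and 1532 CPM in HEAA_full (0.27 ± 0.03, adjusted p = 7.73e-06). IGF2 averaged 2982 CPM in EV_full, so both vectors lay below the empty vector, UTX_full the less so. The largest falls in CPM were mitochondrial RNAs, the actin ACTB and ADAM9. ADAM9, a membrane sheddase, had 499.6, 468.6 and 462.1 CPM in UTX_full, against 854.3, 848.6 and 849.4 CPM in HEAA_full, a 1.78-fold fall (-0.84 ± 0.04, adjusted p = 1.36e-12). It averaged 555 CPM in EV_full, with log2 fold changes of -0.22 for UTX_full and 0.62 for HEAA_full against it.

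The mitochondrial falls depended on which libraries were kept. MT-CO2 had 5572, 5520 and 5507 CPM in UTX_full, against 5876, 7068 and 6845 CPM in HEAA_full. HEAA_full replicate 1 was close to UTX_full and the other HEAA_full libraries were higher, as for the share of mitochondrial RNA given above. Of 13 mitochondrial genes 7 were lower and 0 higher by edgeR, with 0 higher at an unadjusted p under 0.05 and 0 by DESeq2. The lower count was 1 without HEAA_full replicate 2, 2 without HEAA_full replicate 3, 3 without UTX_full replicate 2 and 4 without UTX_full replicate 3. It was 8 without HEAA_full replicate 1. Of 32 cytosolic ribosomal protein genes, RPL15 was higher (0.13, adjusted p = 0.0381) and 0 were lower by edgeR, at an unadjusted p under 0.05 and by DESeq2. The call of RPL15 ended without UTX_full replicate 2 (adjusted p = 0.219), HEAA_full replicate 1 (0.0526) or HEAA_full replicate 2 (0.143).

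Cell contact genes showed opposite moves within families. Of 26 junction genes, the claudins CLDN1 (-0.39), CLDN3 (-0.77) and CLDN7 (-0.50), occludin OCLN (-0.49), EPCAM (-0.19) and desmoplakin DSP (-0.12) fell. The cadherin CDH1 (0.16), the catenins CTNNA1 (0.10) and CTNNB1 (0.17), F11R (0.12) and PKP2 (0.22) were among 6 that rose. CLDN1, a tight junction protein, had 404.4, 418.4 and 387.5 CPM in UTX_full, against 530.3, 515.8 and 537.7 CPM in HEAA_full (adjusted p = 6.06e-08). Of 10 gap junction genes, 5 were lower, led by GJA3 (-1.04), with GJA1 (-0.52), GJB2 (-0.35), GJB6 (-0.22) and GJC1 (-0.16), and GJA5 and GJB5 (0.22) were higher. GJB2 (connexin 26) had 319.3, 302.9 and 293.9 CPM in UTX_full, against 376.8, 383.0 and 410.2 CPM in HEAA_full. The lower count of gap junction genes was 3 without UTX_full replicate 2, HEAA_full replicate 1 or HEAA_full replicate 3, and 3 with upper quartile factors. Of 21 integrin and laminin genes, ITGB4, ITGB6 (0.22), ITGB8 (0.36), LAMA5 (0.17) and LAMB2 (0.18) rose, and the collagen-binding integrins ITGA1 (-0.83) and ITGA2 (-0.35) fell. The higher count of that list was 3 without UTX_full replicate 1 or HEAA_full replicate 1, and 2 without UTX_full replicate 3 or HEAA_full replicate 3.

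Lipid synthesis genes were lower by small factors. Of 25 cholesterol synthesis genes 10 were lower and 0 higher by edgeR, with 2 higher at an unadjusted p under 0.05 and 0 by DESeq2. The higher count was 2 without HEAA_full replicate 2, and 1 without HEAA_sphere replicate 1 or with upper quartile factors. CYP51A1, the lanosterol demethylase, had 79.0, 78.5 and 73.3 CPM in UTX_full, against 98.2, 99.2 and 100 CPM in HEAA_full (-0.37 ± 0.04, adjusted p = 5.10e-07). HMGCS1 fell 1.23-fold and DHCR7 1.24-fold. Of 15 fatty acid synthesis genes 8 were lower and 0 higher by edgeR, with 0 higher at an unadjusted p under 0.05 and 0 by DESeq2. The desaturase SCD had 91.6, 87.8 and 88.3 CPM in UTX_full, against 111.4, 114.9 and 117.6 CPM in HEAA_full (-0.36 ± 0.04, adjusted p = 9.55e-07), and FADS1 and ACACA fell 1.19-fold and 1.21-fold. Of 25 hypoxia and glycolysis genes, 8 were lower, among them GPI (-0.40), ENO1 (-0.36) and TPI1 (-0.30), and NDRG1 (0.69) and SLC2A3 (0.86) were higher. The lower count of that list was 5 without HEAA_full replicate 1 or replicate 3.

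Immune and cytokine genes were called in both directions. Of 21 interferon-stimulated genes, the RNA sensors OAS1 (-0.25), OAS2 (-1.33) and OAS3 (-0.43) fell, and IFIT1 (0.53), IFIT2 (0.36) and IRF9 (0.39) rose. These 3 and 3 of 21 are near the shares over all genes, 12.4% lower and 8.95% higher. OAS2 had 5.23, 6.12 and 5.94 CPM in UTX_full, against 14.3, 14.4 and 14.5 CPM in HEAA_full (adjusted p = 6.88e-12). Of 14 antigen presentation genes, NLRC5, the class I transactivator, fell (-1.07, adjusted p = 4.41e-05), as did PSMB9 (-0.46), HLA-B (-0.39), TAP2 (-0.26), PSMB8 (-0.20), HLA-C (-0.16) and TAP1 (-0.16), and B2M rose (0.19). That lower count of 7 was 4 without UTX_full replicate 1, UTX_full replicate 3, HEAA_full replicate 2 or HEAA_full replicate 3, and 4 with upper quartile factors. The higher count was 2 without HEAA_full replicate 3, UTX_sphere replicate 2 or HEAA_sphere replicate 2. Of 20 NF-kB targets and cytokines, RELB (-0.40), TNFAIP3 (-0.38), ICAM1 (-0.36), IL1B (-0.27), LIF (-0.23) and SOD2 (-0.17) fell, 3 of 20 without HEAA_full replicate 3. IL33 was higher (1.68 ± 0.53, adjusted p = 0.0265) at 0.174, 0.239 and 0.283 CPM in UTX_full, against 0.141, 0.0366 and 0.0318 CPM in HEAA_full. This call ended without UTX_full replicate 2, UTX_full replicate 3, HEAA_full replicate 2 or HEAA_full replicate 3 (adjusted p 0.0519 to 0.155).

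Chromatin genes related to UTX had small differences. Of 10 genes of the KMT2C and KMT2D complexes, WDR5 (-0.28), KDM6A, PAXIP1 (-0.22) and RBBP5 (-0.14) were lower and 0 were higher by edgeR, at an unadjusted p under 0.05 and by DESeq2. KDM6A is the introduced gene, at means of 579 CPM in UTX_full, 694 CPM in HEAA_full and 17.4 CPM in EV_full. Its call therefore includes a difference in RNA from the vectors. KMT2D averaged 201.1 ± 20.2 CPM in UTX_full and 197.2 ± 3.56 CPM in HEAA_full (0.03, adjusted p = 0.774), and KMT2C 106.4 ± 10.0 CPM in UTX_full and 105.7 ± 2.51 CPM in HEAA_full (0.01, adjusted p = 0.921). Of 13 genes of PRC2 and KDM6B, JARID2 (0.25), PHF1 (0.29) and EZH1 (0.19) were higher, and EPOP (-0.27), EZH2 (-0.17) and EED (-0.11) were lower. The lower count of these was 0 without HEAA_full replicate 2 and with upper quartile factors, and 1 in 8 of the other fits that left out a library. The paralogue KDM6B averaged 23.6 ± 1.32 CPM in UTX_full and 21.9 ± 0.585 CPM in HEAA_full (0.11, adjusted p = 0.140). Of 20 other histone demethylases, KDM5B (0.34), KDM4B (0.32), KDM7A (0.32), KDM4A (0.23) and KDM3A (0.20) were higher and RIOX1 (-0.22) lower. KDM5B had 152.0, 145.9 and 148.8 CPM in UTX_full, against 121.2, 116.5 and 115.7 CPM in HEAA_full (adjusted p = 2.65e-06). The call of RIOX1 ended in 10 of the 12 fits that left out a library, and with upper quartile factors the list had 8 higher and 0 lower.

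Of 25 HOX genes tested, HOXB3 (0.31, adjusted p = 0.0482) and HOXD9 (0.40, adjusted p = 0.0421) were higher and 0 were lower by edgeR, with 3 lower at an unadjusted p under 0.05 and 0 by DESeq2, which called 0 higher. Neither count is above the share over all genes, 8.95% higher and 12.4% lower. The call of HOXB3 ended on leaving out any of 5 libraries (adjusted p 0.0584 to 0.191) and that of HOXD9 on leaving out any of 4 (0.108 to 0.171), and 1 gene was lower without UTX_full replicate 3. Of 46 other developmental transcription factors, many of them known Polycomb targets, 12 were lower and 4 higher. BARX2, a homeobox factor, had 1.80, 2.59 and 2.17 CPM in UTX_full, against 4.87, 4.43 and 4.58 CPM in HEAA_full and a mean of 27.1 CPM in EV_full (-1.11 ± 0.12, adjusted p = 7.64e-07). The other lower members included SIX2 (-0.73), FOXF2 (-0.40), FOXQ1 (-0.40), DLX1 (-0.52), DLX5 (-0.37) and ZIC2 (-0.46), and MSX2 (0.28), MEIS1 (0.23), GATA2 (0.20) and TFAP2A (0.14) were higher. Without HEAA_full replicate 3 the counts were 7 lower and 2 higher, and the higher count was 1 without UTX_full replicate 3 and 2 without HEAA_full replicate 2. Of 34 axon guidance and neuronal adhesion genes, 8 were lower, led by SEMA3A, TENM2 (-0.81) and SEMA3D (-0.69), and 8 higher, among them SEMA5A (0.42) and SEMA6A (0.64). Their higher count was 5 without UTX_full replicate 3 or HEAA_full replicate 1.

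Genes of Notch, BMP, WNT and YAP signalling were called in both directions. Of 16 Notch genes, NRARP, a Notch feedback gene, fell: it had 0.436, 0.477 and 0.471 CPM in UTX_full, against 2.40, 2.05 and 1.59 CPM in HEAA_full and a mean of 11.2 CPM in EV_full (-2.11 ± 0.20, adjusted p = 1.85e-07). HES4 (-0.32), JAG1 (-0.23) and NOTCH2 (-0.20) were lower too, and DTX4 (0.15) and LFNG (0.16) higher, and the higher count was 1 without UTX_full replicate 1, 2 or 3, HEAA_full replicate 1 or HEAA_full replicate 3, and with RLE factors. Of 17 BMP and ID genes, follistatin (FST) fell, at 2.85, 2.55 and 2.33 CPM in UTX_full, against 7.06, 6.51 and 7.03 CPM in HEAA_full (-1.41 ± 0.10, adjusted p = 1.19e-09). BMP7 (-1.28, adjusted p = 0.0288) was under 1 CPM, and its call ended on leaving out any of 5 libraries (0.0522 to 0.0987). GDF15 (0.35) and BMPR2 (0.15) were higher, and the higher count was 1 without UTX_full replicate 1, UTX_full replicate 3, HEAA_full replicate 2 or HEAA_full replicate 3. Of 21 WNT genes, TCF7 (-0.69), ZNRF3 (-0.41) and DKK1 (-0.36) fell and WNT5A (0.35) and FZD2 (0.22) rose, 1 of these without UTX_full replicate 1 or HEAA_full replicate 1. The counts of the WNT list and of the BMP and ID list, and the higher count of the Notch list, are near the shares over all genes. Those shares are 12.4% lower and 8.95% higher. Of 21 YAP and TGF-beta targets, 7 were higher, such as AMOTL2 (0.31), AJUBA (0.26), AXL (0.26) and CCN1 (0.19), and TGFB2 (-0.62), ANKRD1 (-0.60), SMAD6 (-0.55) and TEAD4 (-0.25) were lower.

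Among insulin-like growth factor genes, IRS2 (0.46), INSR (0.39), IGF2 (0.27), IRS1 (0.15) and IGF2BP1 (0.14) were higher of 15, and the binding proteins IGFBP6 (-0.59) and IGFBP2 (-0.43) lower. The higher count was 3 without UTX_full replicate 1, 2 without HEAA_full replicate 2 and 8 with upper quartile factors. Of 20 ATF4 and serine synthesis genes, 6 were lower, led by PHGDH, the first enzyme of serine synthesis (-0.60, adjusted p = 3.99e-07), and VLDLR (0.62), DDIT3 (0.36), SESN2 (0.32) and SLC7A11 (0.22) were higher. With upper quartile factors 7 of that list were higher. Of 18 NRF2 targets, HMOX1 rose, at 14.4, 14.4 and 14.4 CPM in UTX_full, against 8.72, 8.42 and 8.81 CPM in HEAA_full (0.73 ± 0.09, adjusted p = 6.86e-06), with TXNRD1 (0.29), TALDO1 (0.22) and TKT (0.16). AKR1B10 (-0.60), AKR1C2 (-0.42), GCLC (-0.34), GCLM (-0.29) and GSR (-0.22) fell. Of 12 retinoid genes, CRABP2, a retinoic acid carrier, had 2.67, 3.10 and 3.55 CPM in UTX_full, against 8.01, 7.32 and 7.06 CPM in HEAA_full (-1.27 ± 0.16, adjusted p = 8.74e-06). STRA6 (-1.16), ALDH1A3 (-0.22) and RARA (-0.21) were lower as well, and RDH10 (0.23), DHRS3 (0.14) and RXRA (0.14) higher. The lower count of retinoid genes was 2 without UTX_full replicate 1 or HEAA_full replicate 1.

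Of 14 PPAR target genes, 3 were higher, among them TXNIP (0.32) and ACSL1 (0.15), and CPT1A (-0.27) and FABP5 (-0.22) were lower. Of 20 actin and SRF targets, TPM4 (-0.30), ACTB (-0.24) and TAGLN2 (-0.20) were lower and CORO2B (0.31), FHL2 (0.16) and TPM1 (0.14) higher, of which 1 was called without UTX_full replicate 2 or HEAA_full replicate 1. Over all genes 8.95% were higher and 12.4% lower, so both actin counts and the lower count of PPAR targets are near those shares. Of the marker lists, LUM was higher among 7 fibroblast markers tested, at 45.6, 47.0 and 41.1 CPM in UTX_full, against 32.5, 31.6 and 35.0 CPM in HEAA_full. In that list 0 were lower by edgeR, at an unadjusted p under 0.05 and by DESeq2. CD68 was lower among 4 leukocyte and endothelial markers tested, at 4.07, 4.22 and 3.05 CPM in UTX_full, against 5.97, 6.37 and 6.01 CPM in HEAA_full, and 0 were higher by the same 3 counts. EV_full averaged 41.9 CPM of LUM and 2.39 CPM of CD68, and the part of other cells in these values was not tested.

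A run of neighbouring genes on chromosome 16 was lower in UTX_full. It was found, after the values were seen, by scanning 10346 protein-coding genes of at least 5 CPM in windows of 7 neighbours for a median log2 fold change past 0.5 in size. The first block, on GENCODE v29 positions (GRCh38), ran from 20702816 to 23453180, 2.75 megabases with 17 genes, of which 15 were lower, with a median of -0.69 (1.62-fold). The second ran from 24537693 to 25257931 with 5 genes, all lower, with a median of -0.73. TNRC6A, of the RNA silencing machinery, averaged 136.5 ± 8.54 CPM in UTX_full, 247.9 ± 8.53 CPM in HEAA_full and 222.4 ± 1.94 CPM in EV_full (SD, n = 3 each; -0.86 ± 0.04, adjusted p = 7.01e-12). UQCRC2, a subunit of respiratory complex III, averaged 165.6 ± 7.12 CPM in UTX_full, 280.6 ± 7.27 CPM in HEAA_full and 331.8 ± 6.20 CPM in EV_full (-0.76 ± 0.04, adjusted p = 5.86e-12). Over the first block the median against EV_full was -0.66 for UTX_full and 0.02 for HEAA_full, and over the second -0.70 and 0.12. Both blocks were lower in sphere medium as well, with medians of -0.70 and -0.51. DNA copy number is not analysed here, and its part in the blocks was not tested. Without the 22 genes of both blocks the count of lower genes was 2422. The 2 members of the first block that were not called, NPIPB4 and NPIPB5, belong to the NPIP family of near-identical copies.

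**Figure D4:**
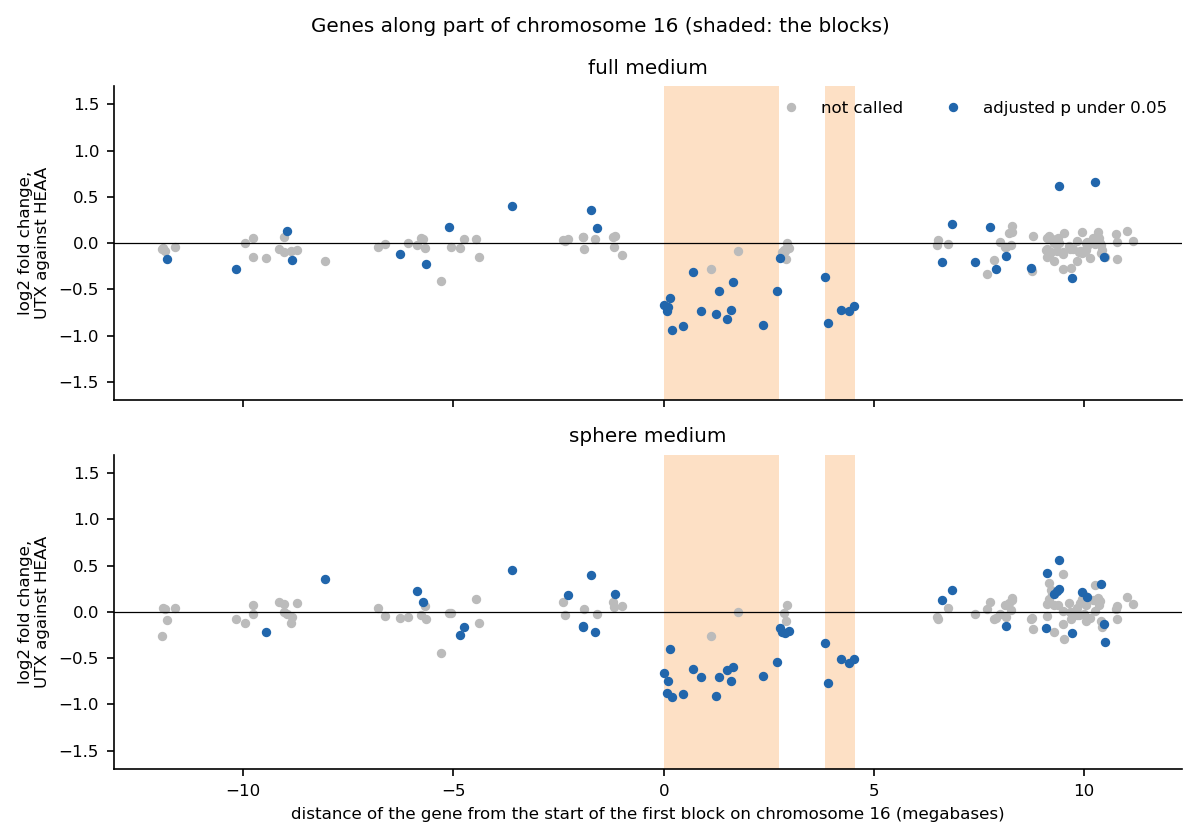
Log2 fold change of UTX against HEAA for genes along part of chromosome 16, in full medium (top) and sphere medium (bottom), against the distance in megabases from the start of the first block, with blue for adjusted p under 0.05 and grey for genes not called. In the shaded blocks 15 of 17 and 5 of 5 genes were lower in full medium, and neighbours outside lay around 0.

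The same contrast in sphere medium, from 6 other libraries of cells with the same vectors, overlapped in part. A difference between the UTX and HEAA cells other than the changed residues could recur in both media, and its part was not tested. There 1742 genes were higher in UTX_sphere (8.87%) and 2189 lower (11.2%), 3931 in either direction (20%). Without UTX_sphere replicate 2 the higher count was 998. Of the genes higher in full medium, 698 were higher in sphere medium too, which is 39.7% of the full medium calls and 40.1% of the sphere medium calls. Of the genes lower in full medium, 1099 were lower in both, which is 45.0% and 50.2% of the calls. Opposite calls were rarer, with 42 genes higher in full and lower in sphere medium and 81 the other way round. Of the 47 genes at least 2-fold higher in full medium, 6 were higher and 1 lower in sphere medium, and of the 136 at least 2-fold lower, 59 were lower and 2 higher.

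Some of the largest differences were present in both media. GJA5 averaged 12.3 CPM in UTX_sphere and 4.79 CPM in HEAA_sphere (log2 fold change 1.34, adjusted p = 3.21e-10), so its fold was kept at a level far under that of full medium. KRT5 averaged 3310 CPM in UTX_sphere and 5998 CPM in HEAA_sphere (-0.86, adjusted p = 1.14e-10), a smaller fold than in full medium, and the difference between media was -0.66 (adjusted p = 5.90e-06). MME (-2.07), SPARC (-1.45), ADAM9 (-0.80), MSN (-0.89), OAS2 (-0.96), FST (-0.92), SLC1A6 (1.14), FN1 (0.44) and TIMP3 (0.59) were called in the same direction in sphere medium. DNA replication genes were lower in 16 of 24 there, and 0 were higher by edgeR, at an unadjusted p under 0.05 and by DESeq2. Squamous genes were lower in 16 of 28, and mitosis genes in 20 of 22, against the 2 called in full medium. The median log2 fold change of mitosis genes was -0.20 in sphere and -0.01 in full medium. Counts of calls do not test a difference between media. By edgeR that difference was 0.06 for AURKB (adjusted p = 0.716) and 0.08 for BIRC5 (adjusted p = 0.569), the 2 called in full medium. Of 26 junction genes 11 were higher and 1 lower in sphere medium, against 6 and 6 in full medium. Integrin and laminin genes were higher in 11 of 21 and lower in 1. CLDN7 (0.16), OCLN (0.14) and GJB2 (0.14) were called higher in sphere medium but lower in full medium, while CLDN1 (-0.48) stayed lower. Those 3 higher calls ended on leaving out any of 5, 11 and 3 libraries. Mitochondrial genes were called in 0 of 13 in sphere medium by edgeR and DESeq2, with 1 higher and 0 lower at an unadjusted p under 0.05. COL4A3 averaged 0.166 CPM in UTX_sphere and 0.144 CPM in HEAA_sphere, and COL4A4 averaged 2.75 CPM in UTX_sphere and 1.86 CPM in HEAA_sphere (0.57, adjusted p = 0.0115). That call ended without UTX_sphere replicate 3 (0.0780) or HEAA_sphere replicate 1 (0.0583).

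The difference between media was tested directly as the full medium log2 fold change minus the sphere medium one, and a gene was called at adjusted p under 0.05 with a difference of at least 1. By this rule 21 genes had a more positive contrast in full medium (0.107%) and 54 a more negative one (0.275%), 0.382% in all. KRT6A is an example of the second kind: it averaged 6416 CPM in UTX_sphere and 7580 CPM in HEAA_sphere (-0.24), and its difference between media was -1.17 (adjusted p = 2.81e-10). S100A9 averaged 2570 CPM in UTX_sphere and 3044 CPM in HEAA_sphere (-0.24), with a difference of -1.61 (adjusted p = 8.15e-11). Both genes were abundant in sphere medium, where UTX was lower by a small factor, and far scarcer in full medium, where UTX was lower by a larger one. GRHL3, AQP3, TFPI2 and NRARP, also higher in level in sphere medium, had log2 fold changes there of -0.36, -0.41, -0.30 and -0.59, against -1.71, -1.61, -1.54 and -2.11 in full medium. AKAP12 and ADAM19 were lower in UTX_full (-0.43 and -0.53) and higher in UTX_sphere (1.05 and 0.86). SPINK5, a squamous protease inhibitor, had log2 fold changes of 0.28 in full (adjusted p = 0.282) and -1.17 in sphere medium (adjusted p = 1.19e-09).

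**Figure D5:**
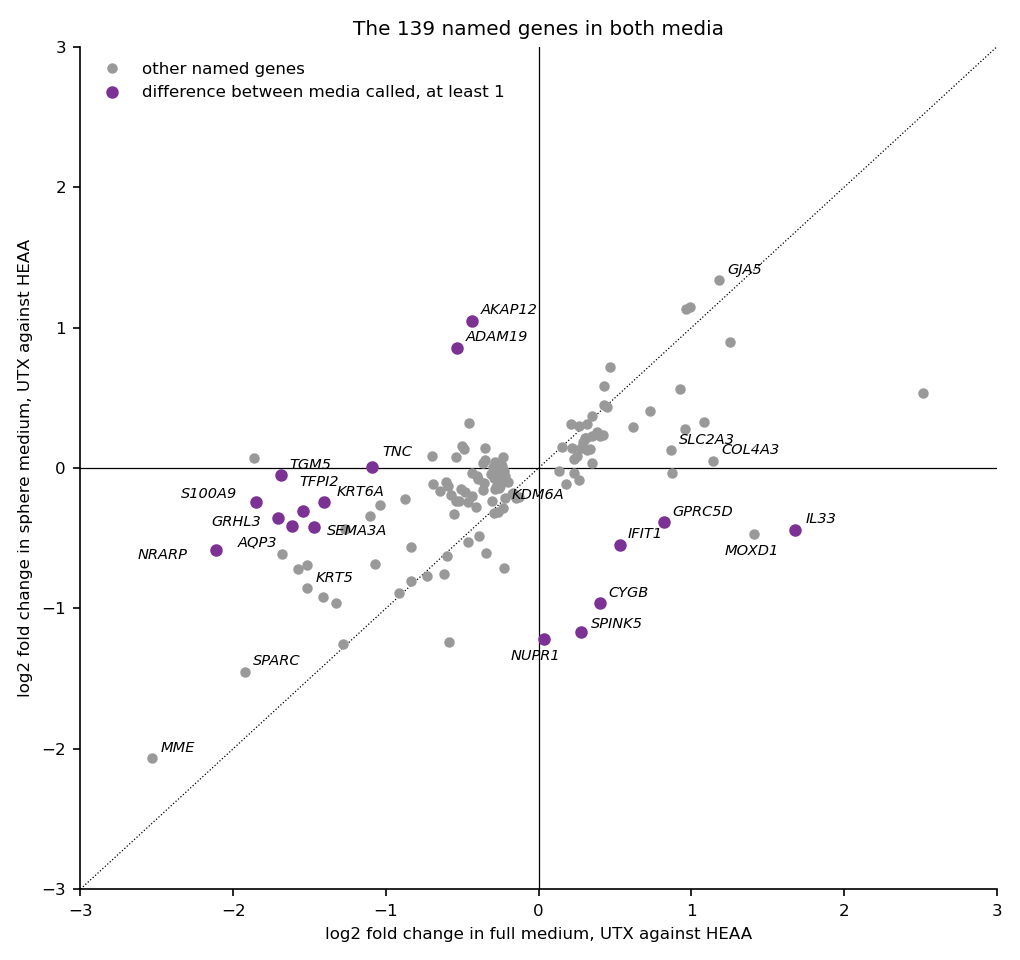
Log2 fold change of UTX against HEAA for the 139 named genes, in full medium (horizontal axis) and sphere medium (vertical axis), with a dotted line of equal values and purple for genes whose difference between media was called and at least 1. GJA5, MME and SPARC lie near the line, S100A9, KRT6A and GRHL3 lie left of it with sphere medium values between -0.36 and -0.24, and AKAP12 and ADAM19 have opposite signs.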

How the data were processed

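RNA of UMUC1 cells was sequenced from TruSeq libraries, per the labels' protocols. The authors deposited 1 table of estimated counts per gene, as whole numbers, for the 18 libraries of this experiment (6 groups of 3). Salmon 0.8, DESeq2 and the build hg19/GRCh37 are named in the submitters' processing notes without a role, and the sources do not state how transcripts were summed to genes. The table holds 58288 genes, 16276 of them at 0 throughout. The file names 26160 genes, the reference table names 16441 more, and 15687 have none. Positions were read from GENCODE v29 (GRCh38), which is not the build in the notes.

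Counts were filtered with filterByExpr by group (19629 genes kept), scaled by TMM and tested with edgeR 4.0.16 (quasi-likelihood, R 4.3.3, limma 3.58.1) in 1 fit over all 18 libraries, with Benjamini-Hochberg adjustment over all genes and a threshold of 0.05. The common biological coefficient of variation was 4.58%. The SE of a log2 fold change is its size divided by the root of F. On counts simulated for this comparison over 19629 genes, edgeR recovered 91% of 2-fold and 66% of 1.25-fold changes, with 4.27% of calls false. DESeq2 recovered 88% and 60% of them, with 8.64% of its calls false. In that simulation 100 genes above a count minimum were changed at each fold, and all other means were equal between groups. The spread was set by a gene's level alone. The data differ in these respects, so their rates may differ. DESeq2 1.42.0, other scalings and filters, a replicate block, single libraries left out and the 6 libraries alone were alternatives. A gene to which DESeq2 gave no adjusted p, as it may at low counts, was counted as not called. Figures were drawn with matplotlib 3.10.9.

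Named genes are KDM6A, the 12 largest rises and falls by fold (called, at least 2 CPM, libraries not overlapping), the 6 largest rises and falls in CPM, up to 3 members with the smallest p of each of 39 lists, and the 5 largest differences between media in each direction, 139 in all. Further list members are named to account for a list's counts. The members and lists were chosen with earlier results of these data known, so a list's direction is not independent evidence, and no set test was run. Libraries were grouped by their labels, and no pair of libraries agreed within sampling noise. The second experiment of the series was not used here.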

Additional observations from a re-analysis of the deposited data

Results flagged for a closer look

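For 17 named genes the difference between UTX and HEAA itself differed between full and sphere medium, by edgeR's test of the full medium log2 fold change minus the sphere medium one, adjusted over all 19629 genes, with a difference of at least 1. They are a share of the 75 genes so called (0.382%).

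Some had negative log2 fold changes in both media, larger in size in full medium. The difference was -1.61 for S100A9 (adjusted p = 8.15e-11), -1.35 for GRHL3 (5.21e-07), -1.20 for AQP3 (6.90e-09), -1.24 for TFPI2 (7.61e-10), -1.05 for SEMA3A (5.57e-06), -1.17 for KRT6A (2.81e-10) and -1.53 for NRARP (0.000148). Tenascin C (TNC) was -1.10 (5.80e-09), from -1.09 in full medium with a sphere medium value of 0.01. The transglutaminase TGM5 was -1.64 (0.00586), from -1.69 in full medium with a sphere medium value of -0.05.

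AKAP12, a kinase anchoring protein, was -1.48 (6.73e-05), with -0.43 in full medium and 1.05 in sphere medium. The metalloproteinase ADAM19 was -1.39 (6.73e-05), with -0.53 in full medium and 0.86 in sphere medium. The interferon-stimulated IFIT1 was 1.08 (0.00126), with 0.53 in full medium and -0.55 in sphere medium, where its call ended on leaving out any of 4 libraries (adjusted p 0.0593 to 0.150).

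The others had their larger difference in sphere medium or were scarce in full medium. SPINK5 was 1.45 (5.90e-05), and the stress-induced NUPR1 was 1.25 (0.00211), with 0.04 in full medium and -1.22 in sphere medium. GPRC5D was 1.21 (0.00591), with 0.82 in full medium and -0.39 in sphere medium. The alarmin IL33 was 2.12 (0.0203), with 1.68 in full medium, where it is under 1 CPM, and -0.44 in sphere medium. The globin CYGB was 1.36 (0.0375), with 0.40 in full medium and -0.96 in sphere medium. The call of IL33 ended without UTX_full replicate 3, HEAA_full replicate 2 or HEAA_full replicate 3 (adjusted p 0.0675 to 0.0852), and that of CYGB on leaving out any of 8 libraries (0.0509 to 0.121).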

How the results depend on the processing

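No called value of a named gene changed sign under these alternatives: of 4824 recomputed, 4637 kept their direction and side of the threshold and 187 kept only their direction. The counts in full medium were within 1.5 times of 1756 higher and 2442 lower under RLE factors, upper quartile factors, total counts, both filters, DESeq2, the replicate block and the 6 libraries alone. With a fold change of at least 2 as well they were 47 and 136. With single libraries left out, they ran from 1416 to 1958 higher and from 1591 to 2316 lower. The sphere medium counts ran from 998 to 1521 higher and from 1877 to 2596 lower, and the counts of differences between media from 17 to 28 and from 39 to 59. Differences between media were the most dependent on other settings: 86 and 138 with no filter on low counts, and 7 and 29 with DESeq2. The cause was not tested. Of 136 named genes past the threshold in full medium, at most 12 lost the call in 1 fit, without HEAA_full replicate 2 or replicate 3.

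Libraries with the same replicate number did not deviate together: their correlations in full medium were 0.00, -0.24 and -0.22, and in sphere medium -0.10, -0.06 and 0.02, over 11140 genes. Pairs with unlike numbers ran from -0.09 to 0.27 in full medium and from -0.10 to 0.16 in sphere medium. The highest were UTX_full replicate 3 with HEAA_full replicate 2 (0.27) and UTX_full replicate 2 with HEAA_full replicate 3 (0.20). Deviations were taken from the mean of each group, so negative values for some pairs require positive ones for others. A spread shared across unlike numbers is not covered by the replicate block and was not tested. The fit with the replicate block had 1681 higher and 2370 lower genes in full medium, 1675 and 2104 in sphere medium, and 20 and 52 between media. With the 6 libraries alone and the block, 1395 were higher and 1849 lower. Depth limits the low genes: KRT1, S100A8, ZEB1, BMP7 and IL33, all under 1 CPM in full medium with either vector, rest on few counts per library.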

Other observations

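Families chosen after their values were seen are given as values only. All 11 protocadherin beta genes tested, cell adhesion proteins in a tandem cluster, had a log2 fold change above 0 in full medium, with a median of 0.57. Of them 7 were higher and 0 lower (4 higher without HEAA_full replicate 3 and by DESeq2), and in sphere medium 2 were higher. Of 21 protocadherin gamma genes 5 were higher and 0 lower (2 higher without UTX_full replicate 3 or HEAA_full replicate 3, 3 without HEAA_full replicate 1 or replicate 2, and 1 lower without HEAA_full replicate 1). Their exons are shared or alike, so their counts are uncertain.

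Of 444 zinc finger genes named ZNF and a number, 50 were higher (11.3%) and 16 lower (3.60%), against 8.95% and 12.4% of all genes, with a median of 0.06. The lower count was 10 without HEAA_full replicate 2 and 9 without HEAA_full replicate 3. In sphere medium 49 were higher and 11 lower.

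The formyl peptide receptors FPR1, FPR2 and FPR3, chemoattractant receptors best known from phagocytes, were all higher in full medium by edgeR. Their log2 fold changes were 1.95, 2.17 and 2.34, and edgeR called 1 of them without HEAA_full replicate 1. DESeq2 called 0 of 3, where a gene without an adjusted p counts as not called. FPR1 averaged 1.56 ± 0.220 CPM in UTX_full and 0.401 ± 0.104 CPM in HEAA_full (SD, n = 3 each), and the others were lower in level. The span of FPR1 overlaps those of FPR2 and FPR3 on the opposite strand, so reads may be divided between them. Of 1262 lincRNA genes 48 were higher and 21 lower, and of 1655 antisense genes 44 were higher and 31 lower. Over all genes tested 8.95% were higher and 12.4% lower, so both types are below those shares.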
